A study of Rattus norvegicus with 2 samples.

Results

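A set of 8 genes linked to the making and use of S-adenosylmethionine was followed in rat liver. The rats were fed a choline-deficient diet or a control diet. Members of the set were Gnmt, Mat1a, Mat2a, Mat2b, the predicted Mat2a-like gene RGD1560523, Ahcy, Gamt and Nnmt. They were taken by gene name from the array files, as every gene probe that carries 1 of the 8 names, which gave 12 of the 41012 gene probes. All 8 genes passed the filter on dim probes and were among the 18196 genes tested. The genes were chosen by their ratio of choline-deficient over control liver on these arrays, so those ratios are given as a description, with no test. The choline-deficient group was Wister rats (the spelling of the labels) of 7 weeks fed that diet for 10 days, and the control group was rats of the same strain and age on a control diet for the same time. Total liver RNA was hybridised to 2 two-colour arrays of 60-base oligonucleotides, with choline-deficient RNA in Cy5 and control RNA in Cy3 on array 1 and the dyes exchanged on array 2. The titles speak of 4 animals on the deficient diet, but neither pooling of RNA nor the rats behind each array are stated, so the spread between the arrays may be technical.

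S-adenosylmethionine is the methyl donor of most cellular methylation. It is made from methionine and ATP by methionine adenosyltransferases: Mat1a encodes the catalytic subunit typical of adult hepatocytes, Mat2a the catalytic subunit of most other tissues and of growing liver cells, and Mat2b a regulatory subunit of the Mat2a enzyme. Methyltransferases spend it and release S-adenosylhomocysteine, which the hydrolase encoded by Ahcy splits into adenosine and homocysteine. In liver, Gnmt is an abundant sink that methylates glycine, Gamt completes creatine synthesis and Nnmt methylates nicotinamide. Choline feeds this cycle through betaine, which can remethylate homocysteine to methionine.

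The probes that carry the main values are shown 5′ to 3′, with their positions in rn4, the rat genome build named in the files. The files give no exon or intron for them. The Gnmt probe (chr9:10130178-10130237, plus strand) and the brighter Mat1a probe (chr16:17562237-17562296, plus strand) are printed first, and no other gene probe on the array shared a run of 20 bases with either of them.
Gnmt: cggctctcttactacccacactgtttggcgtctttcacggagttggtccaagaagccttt
Mat1a, probe 1: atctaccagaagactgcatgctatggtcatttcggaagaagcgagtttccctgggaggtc
The Mat2a probes and a RGD1560523 probe follow, because the files place them on the same stretch of chromosome 4, all on the minus strand (chr4:105740884-105740943, chr4:105740819-105740878 and chr4:105740864-105740923). Capitals mark bases that are the same in the overlapping Mat2a and RGD1560523 probes.
Mat2a, probe 1: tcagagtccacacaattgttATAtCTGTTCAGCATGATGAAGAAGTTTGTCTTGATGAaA
Mat2a, probe 2: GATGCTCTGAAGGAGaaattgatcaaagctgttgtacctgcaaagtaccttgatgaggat
RGD1560523, probe 2: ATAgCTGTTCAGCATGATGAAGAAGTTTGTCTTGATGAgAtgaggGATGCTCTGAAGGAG
The RGD1560523 probe overlaps Mat2a probe 1 by 40 bases, of which 38 are identical. The differences are T24G and A59G, with the base of Mat2a probe 1 first and positions counted from its 5′ end. It overlaps Mat2a probe 2 by 15 bases, all identical. RGD1560523 is described in the files as a predicted gene resembling the Mat2a enzyme. Neither of its accessions matched the RefSeq table of assembly GRCr8, whereas all 10 probes of the other 7 genes did, under their present symbols. Signal of this probe and of Mat2a probe 1 may come from the same transcripts, which was not tested.

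All 12 probes were well above background in both diets on both arrays, no spot of them was saturated or set aside as an outlier, and each had 1 spot per array. The levels below are normalized intensities, comparable between diets and arrays for a given probe but not between probes. Of 43379 gene spots per array, 62.9% on array 1 and 63.2% on array 2 were well above background in Cy5. In Cy3 the shares were 54.2% and 53.5%. The higher share was thus that of choline-deficient liver on array 1 and of control liver on array 2. Across the genes tested, ratios of the arrays had a Pearson r of 0.55 and a Spearman rho of 0.30 (across genes, which are not independent replicates). All 10 hepatocyte markers examined, among them Alb and Ttr, were well above background in both diets on both arrays. In bulk liver RNA, fewer cells of a type and less RNA per cell cannot be told apart.

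The lowest ratio of the 8 genes was that of the glycine methyltransferase Gnmt, and the highest were those of RGD1560523 and Mat2a. Gnmt, Mat1a, Mat2b, Ahcy, Gamt and Nnmt were lower in choline-deficient liver on both arrays, and Mat2a and RGD1560523 higher on both. With median centring in place of loess the signs of Mat2b and Nnmt turned, and the median of all genes tested was 0.08. Nothing is read from these directions, because the ratio served to choose the genes. The median of the mean log2 ratios of the 8 genes was -0.19, against 0.00 for all genes tested. In limma's test with a Benjamini-Hochberg adjusted p under 0.05 as the threshold, 8.62% of all genes were called, 4.37% higher and 4.25% lower. The 8 genes held 2 of the calls higher and 3 of the calls lower, a count from which nothing is read because the ratio served to choose them. At least 1.5-fold on both arrays, by size alone, RGD1560523 was higher and Gnmt lower, against 0.857% and 0.495% of all genes in those directions.

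**Figure D1:**
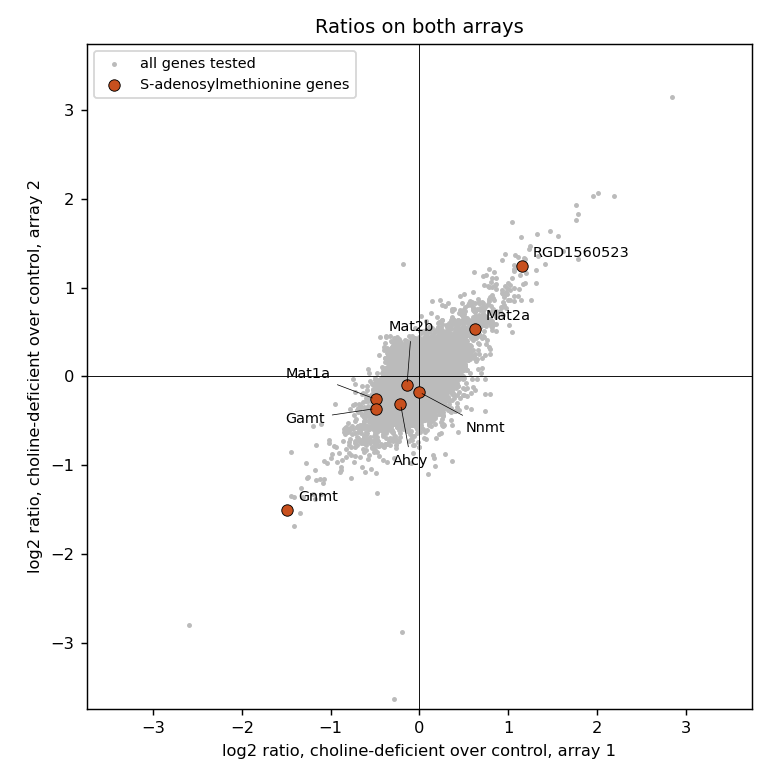
Log2 ratio of choline-deficient over control liver on array 1 (x axis) against array 2 (y axis). Grey points are the 18196 genes tested and orange points the 8 S-adenosylmethionine genes, of which Gnmt lies at the low end of both axes, RGD1560523 and Mat2a lie in the upper right, and the remaining 5 lie in the lower left near the bulk of the genes.

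Among the enzymes that make S-adenosylmethionine, the hepatocyte gene Mat1a was lower and Mat2a higher in choline-deficient liver. Mat1a probe 1 had levels of 1258 and 1417 in choline-deficient liver, against 1770 and 1694 in control liver (array 1 first). Mat1a probe 2 had 1237 and 1389 in choline-deficient liver, against 1611 and 1646 in control liver. At both probes the gap between the diets was wider on array 1. The mean log2 ratio at probe 1, by which the gene is represented, was -0.37 ± 0.17 (SD, n = 2 arrays), or 77.1% of the control level, and probe 2 gave -0.31 ± 0.10. With median centring in place of loess the ratio of Mat1a was -0.19. A probe named AA819118, on the opposite strand 1274 bases from probe 1, had levels of 448 and 397 in choline-deficient liver, against 675 and 588 in control liver, with log2 ratios of -0.59 and -0.57.

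Mat2a probe 1 had levels of 317 and 295 in choline-deficient liver, against 205 and 204 in control liver. Mat2a probe 2 had 228 and 199 in choline-deficient liver, against 184 and 153 in control liver. At probe 2 the lower choline-deficient value (199) lay little above the higher control value (184). The mean log2 ratio of Mat2a was 0.58 ± 0.07 at probe 1, a 1.49-fold higher level, and 0.35 ± 0.05 at probe 2 (SD, n = 2 arrays). These probes are dim, and the offset added in background correction draws ratios of dim probes towards 0. The deposited log ratios, made without that offset, were 1.24 and 0.80 for probe 1 and 0.78 and 0.77 for probe 2 on the log2 scale.

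Set side by side at probe 1 of each gene, the log2 ratio of Mat2a exceeded that of Mat1a on both arrays. The excess was 1.12 on array 1 and 0.79 on array 2. This is a difference between ratios: the level of Mat1a cannot be set against that of Mat2a, since the probes differ. At probe 2 the ratios were smaller in size, at 0.31 and 0.38 for Mat2a and -0.38 and -0.24 for Mat1a. The Mat2a probes are dim, so the difference also depends on the offset. Mat2b, the regulatory subunit, had levels of 672 and 699 in choline-deficient liver, against 741 and 750 in control liver. Its mean log2 ratio was -0.12 ± 0.03 (SD, n = 2 arrays). The direction was the same on both arrays, but it turned with median centring in place of loess, to 0.042. With that setting the median of all genes tested was higher still, at 0.08. No direction is given for Mat2b.

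**Figure D2:**
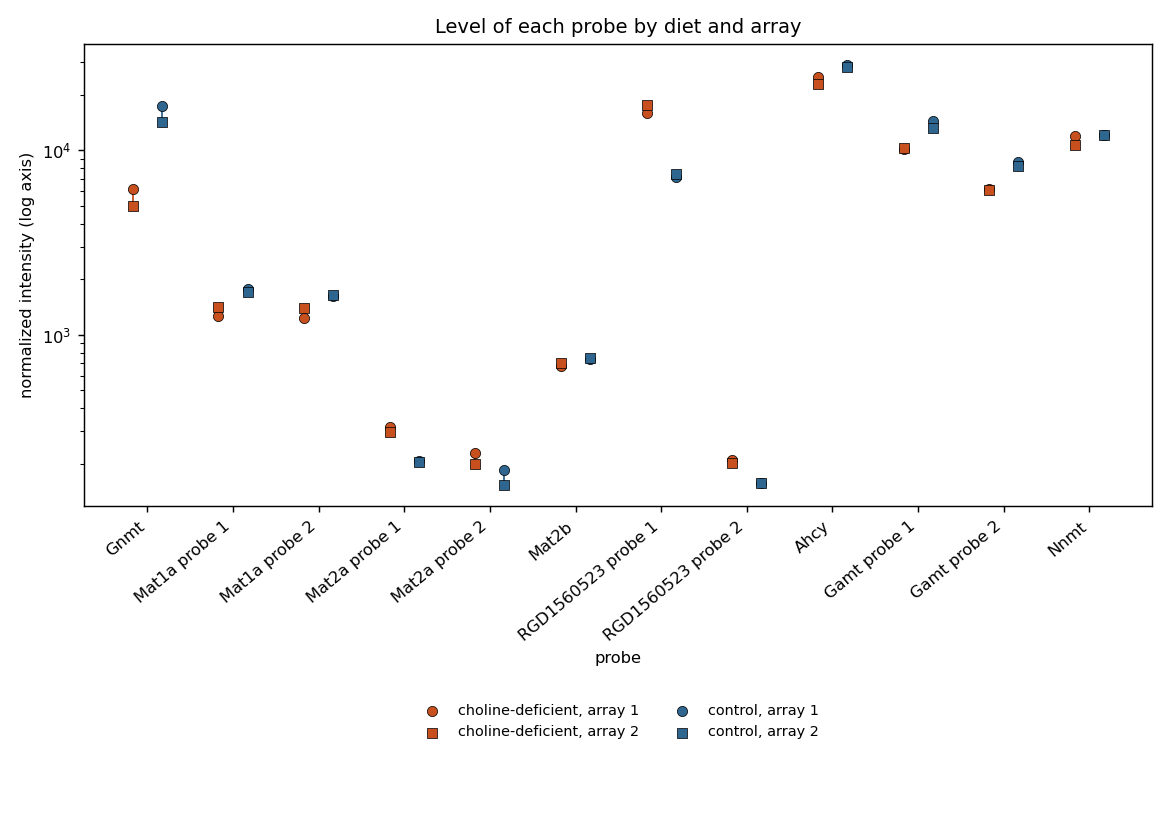
Normalized intensity (log axis) of each of the 12 probes, with choline-deficient liver in orange left of control liver in blue, circles for array 1 and squares for array 2. Gnmt lies lower in choline-deficient liver and RGD1560523 probe 1 higher by the widest margins, and at Nnmt the values of the diets on array 1 nearly coincide.

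The probes under the name RGD1560523 were both higher in choline-deficient liver, but by different amounts. Probe 1 had levels of 15950 and 17670 in choline-deficient liver, against 7186 and 7453 in control liver. Probe 2, whose sequence is printed above, had 208 and 202 in choline-deficient liver, against 157 and 157 in control liver. The control values of each probe were close to each other. The mean log2 ratio was 1.20 ± 0.07 at probe 1, a 2.29-fold higher level, and 0.38 ± 0.03 at probe 2 (SD, n = 2 arrays). For probe 2 the deposited log ratio was higher and differed between the arrays, at 1.36 and 0.62 on the log2 scale. For probe 1 it was 1.20 and 1.23.

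Probe 1 of RGD1560523 (chr4:105738543-105738602 in rn4) lies on the minus strand, the strand of the Mat2a probes, and its start is 2341 bases from that of Mat2a probe 1. The Mat2a gene spans 5570 bases in the RefSeq annotation of GRCr8. Whether probe 1 lies inside the Mat2a transcript in rn4 was not tested, as no genome or annotation of that build was used here. The ratio of 1.20 is therefore reported as that of the probe and not of a named enzyme. Within 10000 bases of Mat2a probe 1 the array holds 4 probes under other names, all on the plus strand. A probe named AI010960, which covers part of the same stretch as RGD1560523 probe 1 on the opposite strand, had levels of 171 and 166 in choline-deficient liver, against 171 and 151 in control liver. Its ratio was near 0 on array 1 and 0.14 on array 2. The neighbouring carboxylase gene Ggcx, which acts in vitamin K-dependent protein modification, was at 0.02 and 0.12 for its 2 probes. The last of the 4, named TC634758, did not pass the filter on dim probes, and its ratio is not given.

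**Figure D3:**
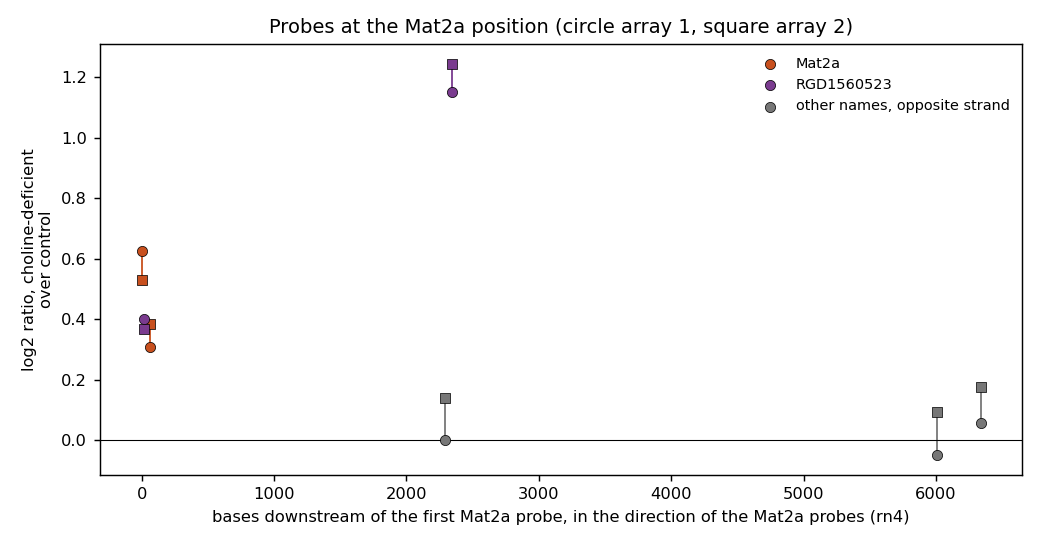
Log2 ratio of choline-deficient over control liver for probes at the position of Mat2a, plotted against the distance in bases from Mat2a probe 1, in the direction of the Mat2a probes. Lines join array 1 (circle) and array 2 (square) of a probe: the Mat2a and RGD1560523 probes, all on 1 strand, lie between 0.31 and 1.25, and the probes of the opposite strand that passed the filter on dim probes between -0.05 and 0.18.

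Gnmt had levels of 6179 and 4991 in choline-deficient liver, against 17307 and 14197 in control liver. The diets were far apart on both arrays, and the values of array 2 were the lower ones in both diets. The mean log2 ratio was -1.50 ± 0.02 (SD, n = 2 arrays), or 35.4% of the control level, which was the 5th lowest mean ratio among the 18196 genes tested. The deposited log ratios were -1.45 and -1.52 on the log2 scale, with errors of 0.24 and 0.25 from the scanner software's error model. The array holds 1 probe under the name Gnmt. A probe named AA893219, placed 190 bases from it on the opposite strand, had levels of 291 and 269 in choline-deficient liver, against 615 and 599 in control liver. Its log2 ratio was -1.12 ± 0.05 (SD, n = 2 arrays). The next gene in this window, the peroxisome assembly gene Pex6, was at 0.03 ± 0.16.

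Gamt, the guanidinoacetate methyltransferase, was lower by a smaller amount, and its probes agreed closely. Probe 1 had levels of 10184 and 10229 in choline-deficient liver, against 14325 and 13146 in control liver. Probe 2 had 6163 and 6073 in choline-deficient liver, against 8583 and 8250 in control liver. The mean log2 ratios were -0.43 ± 0.09 at probe 1 (74.4% of the control level) and -0.46 ± 0.03 at probe 2 (SD, n = 2 arrays). With median centring the ratio of Gamt was -0.25. The files give probe 2 a span of 192 bases in rn4 for its 60-base sequence. A probe named TC580077 lies over Gamt probe 1 on the opposite strand, sharing a run of 48 bases as its reverse complement. Its log2 ratio was 0.03 on array 1 and -0.24 on array 2.

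The nicotinamide methyltransferase Nnmt had levels of 12004 and 10738 in choline-deficient liver, against 12055 and 12120 in control liver. The values of array 1 were nearly equal, and the mean log2 ratio of -0.09 was smaller than its SD of 0.12 (n = 2 arrays). Its sign turned with median centring, to 0.091, near the median of all genes tested with that setting (0.08). Ahcy, the hydrolase that clears the product of these methyltransferases, had levels of 24997 and 22781 in choline-deficient liver, against 28982 and 28172 in control liver. Its mean log2 ratio was -0.26 ± 0.07 (SD, n = 2 arrays), or 83.5% of the control level, and -0.086 with median centring. On array 1 its ratio (-0.21) was smaller in size than that of Mat1a (-0.49), and on array 2 it was slightly larger (-0.31 for Ahcy, -0.26 for Mat1a).

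**Figure D4:**
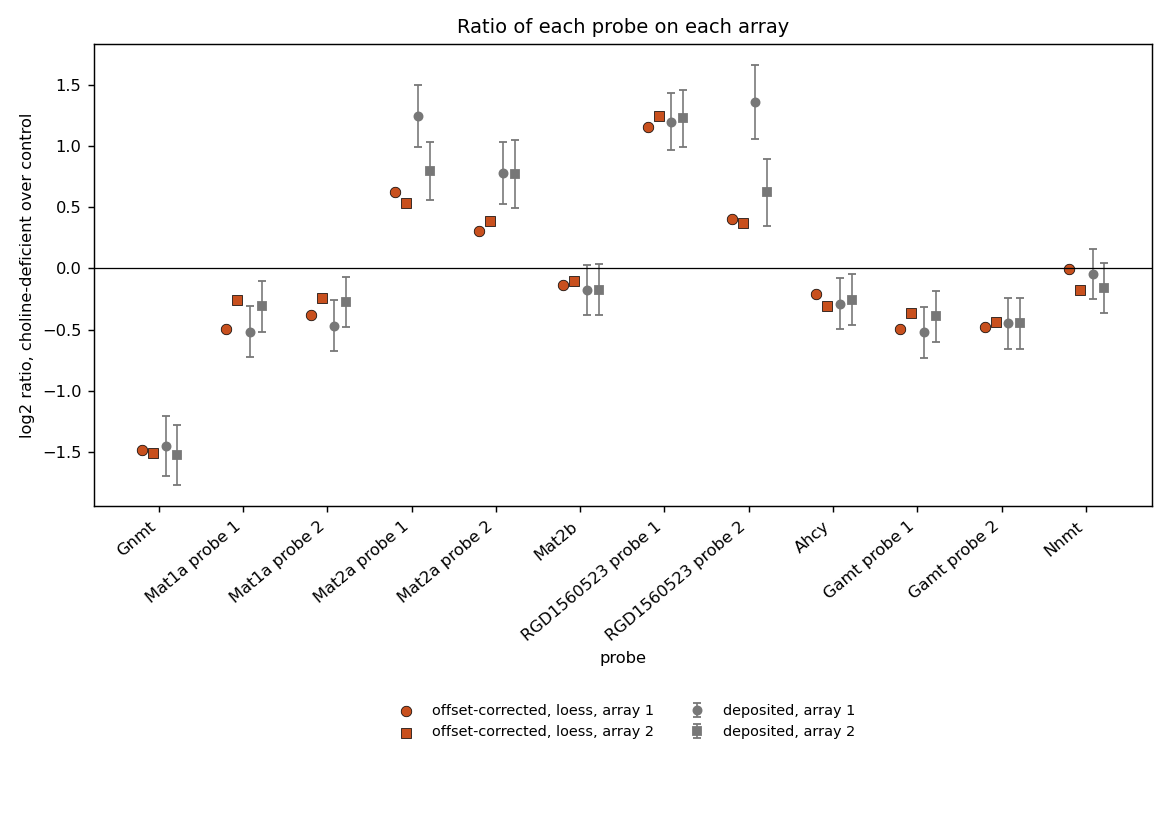
Log2 ratio of choline-deficient over control liver for the 12 probes on array 1 (circles) and array 2 (squares). Orange points are the offset-corrected, loess-normalized ratios and grey points the deposited ratios with the error of the scanner software's model: both sets lie close for the bright probes, and for the dim Mat2a probes and RGD1560523 probe 2 the deposited ratios are higher.

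In the order of their mean log2 ratios the genes ran from Gnmt (-1.50) through Gamt (-0.43), Mat1a (-0.37), Ahcy (-0.26), Mat2b (-0.12) and Nnmt (-0.09) to Mat2a (0.58) and RGD1560523 (1.20). Gamt and Mat1a differed by less than the larger of their SDs, as did Mat1a and Ahcy, and Mat2b and Nnmt. The genes whose ratios on both arrays were most like those of Gnmt, by the larger of the differences on the 2 arrays, were Slc27a5 (0.15), Lox (0.16), Adh1 (0.18) and Bcl6 (0.18). For Mat2a they were Ephx1 (0.02), Arhgef39 (0.02), Ccdc120 (0.02) and Rad18 (0.04).

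Genes next to these 8 in metabolism were taken from 9 lists, 100 genes in all, of which 89 were tested, 1 rose, 12 fell and 76 did not pass. These shares, 1.12% higher and 13.5% lower, stand beside 4.37% and 4.25% of all genes tested, and the median log2 ratio of the 89 genes was -0.03, against 0.00. The lists were drawn up with earlier results of these data known. The adjusted p-values that follow are from limma with Benjamini-Hochberg adjustment over all 18196 genes. These calls are from the loess fit with an offset of 50 and depend on the processing. With loess and an offset of 16, limma called 10 of the related genes lower and 0 higher. With the deposited log ratios and with median centring, limma called no gene, with 2122 and 19 genes at an unadjusted p under 0.05.

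Of 8 other methyltransferases of small molecules reported here, 2 fell and 6 did not pass, with a median of -0.13. As3mt, the arsenite methyltransferase, fell (-0.48 ± 0.14, adjusted p = 0.000404), and so did the methyltransferase-like gene Mettl7a (-0.44 ± 0.23, adjusted p = 0.00199). The remaining 6 had mean log2 ratios between -0.26 ± 0.31 for Pemt, which makes phosphatidylcholine, and 0.15 ± 0.05 for Coq5, which acts in coenzyme Q synthesis. The ratio of Pemt was -0.48 on array 1 and -0.04 on array 2, so its SD exceeded its mean in size. Pemt and Coq5 were named after their values were seen.

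Methyltransferases of nucleic acids and proteins gave no call among 23 tested, with mean log2 ratios between -0.13 and 0.21. At the top of that range were the arginine methyltransferases Prmt7 (0.21 ± 0.09, adjusted p = 0.266) and Prmt5 (0.20 ± 0.07, adjusted p = 0.282). Nor did any of the 15 genes of S-adenosylmethionine decarboxylation, polyamines and methionine salvage pass. Amd1, the decarboxylase that diverts S-adenosylmethionine to polyamines, was at 0.25 ± 0.20 (adjusted p = 0.149), and the spermidine synthase Srm at 0.24 ± 0.11 (adjusted p = 0.17). No list here measures S-adenosylmethionine itself.

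Of 6 tested genes listed around the Ahcy reaction, which handle adenosine or resemble Ahcy, 3 fell. These were the ecto-5′-nucleotidase Nt5e, which makes adenosine from AMP (-0.47 ± 0.11, SD, n = 2 arrays; adjusted p = 0.000616), the adenosine kinase Adk, which phosphorylates adenosine (-0.39 ± 0.01, adjusted p = 0.00487), and the nucleoside transporter Slc29a1 (-0.34 ± 0.18, adjusted p = 0.0221). Slc29a1 did not pass at offset 16 (adjusted p = 0.0845) or with dim probes kept in (adjusted p = 0.0534). The list had a median of -0.23. The Ahcy-like gene Ahcyl1 differed in sign between the arrays, at -0.31 and 0.29.

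Of 12 genes that handle sarcosine, the product of Gnmt, and glycine, its substrate, 3 fell: the D-amino acid oxidase Dao (-0.45 ± 0.14, adjusted p = 0.00117), the glyoxylate aminotransferase Agxt (-0.45 ± 0.04, adjusted p = 0.00115) and the glycine acyltransferase Glyat (-0.38 ± 0.03, adjusted p = 0.00713). The sarcosine dehydrogenase Sardh was at -0.01 ± 0.03 (SD, n = 2 arrays; adjusted p = 0.995). Beside Gamt, none of 4 creatine genes passed. Gatm, which makes the substrate of Gamt, was at -0.11 ± 0.03 (adjusted p = 0.744), and the creatine kinase Ckb at 0.14 ± 0.06 (adjusted p = 0.606). Sardh, Ahcyl1 and Bhmt2 were named after their values were seen.

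Around Nnmt, 14 genes of nicotinamide and NAD turnover held 1 that rose and 3 that fell. The aldehyde oxidase Aox1, which oxidises methylated nicotinamide, fell (-0.54 ± 0.23, SD, n = 2 arrays; adjusted p = 8.51e-05). Its relative Aox3, well above background in choline-deficient liver on 1 of the arrays, was at -0.34 ± 0.31 (adjusted p = 0.0276), and Naprt1, which salvages nicotinic acid, at -0.33 ± 0.13 (adjusted p = 0.0237). The NAD-consuming polymerase Parp1 rose (0.31 ± 0.17, adjusted p = 0.0422), but did not pass at offset 16 (adjusted p = 0.113), by the mean of its probes (adjusted p = 0.0641) or with dim probes kept in (adjusted p = 0.0948). With dim probes kept in, the calls of Aox3 (adjusted p = 0.0714) and Naprt1 (adjusted p = 0.0555) were lost too, and at offset 16 that of Naprt1 (adjusted p = 0.0823). Of 7 genes of homocysteine remethylation and removal, Bhmt, which uses betaine, fell (-0.51 ± 0.16, adjusted p = 0.00018), and its relative Bhmt2 was at -0.29 ± 0.14 (adjusted p = 0.0633).

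**Figure D5:**
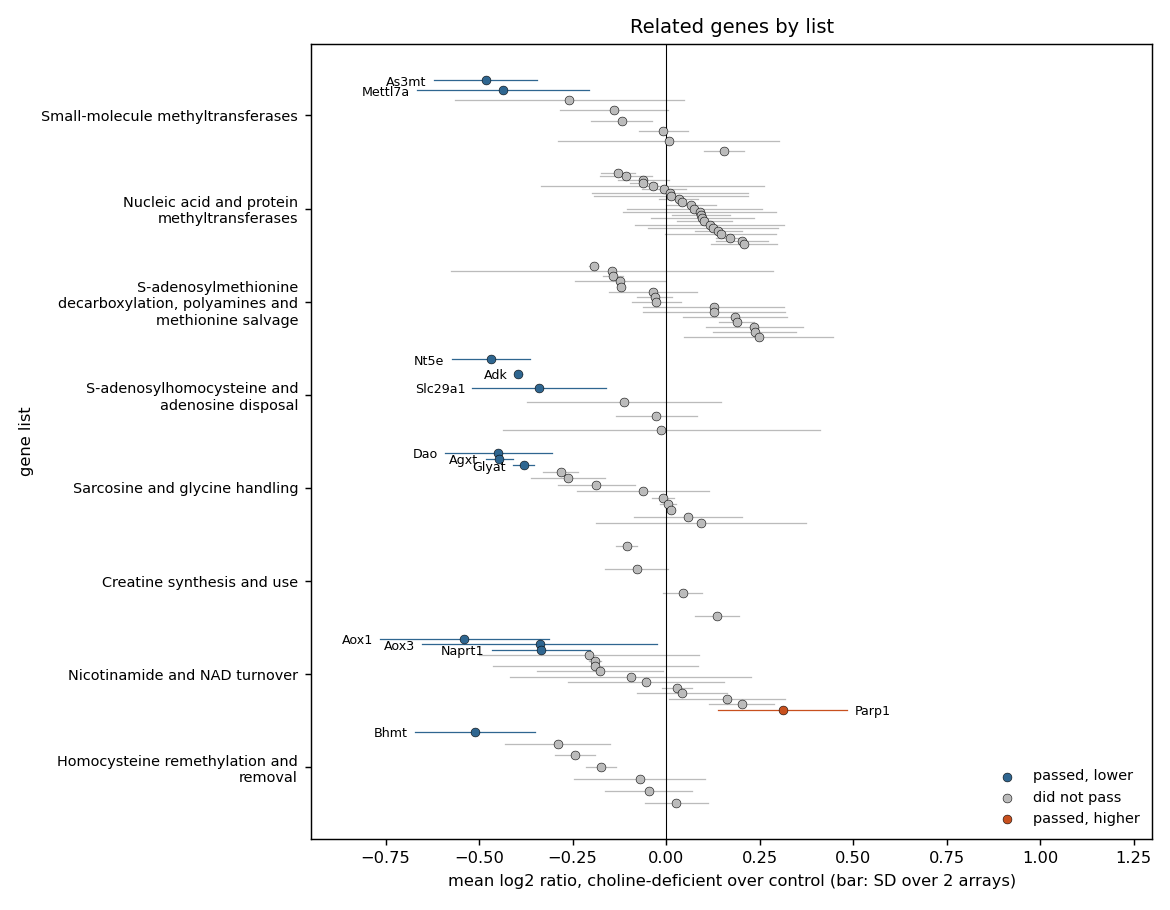
Mean log2 ratio of choline-deficient over control liver for 89 related genes in 8 of the lists, with bars for the SD over 2 arrays. Blue points fell, orange points rose and grey points did not pass; the fallen genes lie between -0.54 and -0.33, and Parp1, at 0.31, is the point that rose, a call lost with an offset of 16, with the mean of probes and without the filter on dim probes.

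Markers of other cells that could move with these values were read in the same fit. Mat2a is known from growing liver cells, and all 7 tested markers of proliferating cells rose, with a median log2 ratio of 0.75 and a range from 0.30 for Mcm2 to 1.34 for Cdk1. Of 10 tested Kupffer cell and macrophage markers, 2 rose (Marco and Lyz2) and none fell, with a median of 0.01. Stellate cell markers held 3 that rose of 7, with a median of 0.08, endothelial markers 1 that fell of 6, with a median of -0.10, erythroid markers 1 that fell of 3, and T, NK and B cell markers (5 tested) and cholangiocyte markers (4 tested) gave no call. Hepatocyte markers moved both ways, with 3 that rose and 2 that fell of 10. The part of cell composition in the values of Mat1a, Mat2a and the other genes was not tested.

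For the promoters, RefSeq sequences of assembly GRCr8 were at hand for 6 of the 8 genes (Gnmt, Mat1a, Mat2a, Mat2b, Ahcy and Gamt), from 250 bases before to 50 after the gene start. Because their ratios lie at opposite ends, the 250 bases before the start of Gnmt (chr9:21752032-21752281, plus strand) and of Mat2a (chr4:106053613-106053862, minus strand) are printed, with capitals for the motifs searched.
Gnmt: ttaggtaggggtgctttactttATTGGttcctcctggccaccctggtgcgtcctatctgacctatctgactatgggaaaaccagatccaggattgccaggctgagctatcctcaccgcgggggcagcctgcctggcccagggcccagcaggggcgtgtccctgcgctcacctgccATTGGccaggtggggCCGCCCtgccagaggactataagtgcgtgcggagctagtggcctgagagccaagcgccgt
Mat2a: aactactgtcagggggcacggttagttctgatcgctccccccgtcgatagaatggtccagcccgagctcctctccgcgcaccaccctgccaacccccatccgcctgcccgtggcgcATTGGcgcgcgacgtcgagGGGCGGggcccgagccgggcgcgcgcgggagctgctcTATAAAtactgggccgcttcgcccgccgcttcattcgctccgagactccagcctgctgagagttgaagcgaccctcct
The motifs, searched on both strands, were the TATA box core TATAAA, the CCAAT box (CCAAT), the GC box GGGCGG, the E-box CACGTG and the cyclic AMP element core TGACGT, with no overlap among the matches shown. Mat2a alone of the 6 held TATAAA (14.2% of 33469 promoters did), starting 78 bases before the gene start. CCAAT was in 3 of the 6 (Gnmt, Mat2a and Mat2b, against 37.5%) and GGGCGG in 5 of the 6 (all but Mat1a, against 33.1%). TGACGT was in Mat1a (7.94% of all), and CACGTG in none (6.42%). The Mat1a promoter was the poorest in G and C, at 48.7%, against 64% for Gnmt and 68% for Mat2a, with a median of 51.7% over all promoters. Motifs were shared between genes of opposite ratio, and a match is a description of the sequence only.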

How the data were processed

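Liver RNA from both diets was hybridised to 2 dye-swapped arrays. Per the file headers, the authors scanned them with Agilent Feature Extraction (9.5 in the submitters' processing notes). The deposited files hold raw spot and background intensity per dye. They also hold the deposited log10 ratio of Cy5 over Cy3, background-subtracted, detrended and lowess-normalized per the file headers, with an error (another deposited value, from the software's model). The series table of deposited values repeats that ratio and was not used.

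Intensities were corrected by normexp (offset 50) and loess-normalized within arrays with limma 3.58.1 in R 4.3.3, control spots at weight 0 and outlier spots left out. Levels were scaled between arrays on mean intensity (Aquantile). Probes well above background on both arrays in at least 1 diet were kept, and the brightest kept probe stands for a gene. Each ratio was set as choline-deficient over control for both dye orders and fitted with lmFit and eBayes, two-sided, with 1 residual and 62.5 prior degrees of freedom. The p-values measure only the spread between the arrays, mostly as pooled over all genes tested. A gene's own spread weighs little in them, so a low p-value does not show that its 2 ratios were close. The fit was tested on simulated data, from which nothing is read about the calls given here. The number of arrays limits the precision. The members and lists were chosen with earlier results of these data known. From the lists, 1 gene is not reported here and is left out of the list counts and medians. Named related genes are up to 4 that passed per list, or the leading 2, and for Gnmt and Mat2a the 4 genes of most similar ratios. Promoter and gene names are from RefSeq (GRCr8), matched by accession or symbol.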

Additional observations from a re-analysis of the deposited data

How the results depend on the processing

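Over 48 alternative values of the 8 genes, 46 kept the sign. Part of these could not turn. Each gene had the same sign on both arrays, which fixed the sign of the values from 1 array alone. For Gnmt, Mat2b, Ahcy and Nnmt, with 1 probe each, the mean of probes is the main value. The tally is therefore no measure of robustness. With median centring, Mat2b turned to 0.042 and Nnmt to 0.091, Gnmt was at -1.30, Mat1a at -0.19, Ahcy at -0.086, Gamt at -0.25, Mat2a at 0.66 and RGD1560523 at 1.37. The median of all genes tested was 0.08 with median centring, against 0.00 in the main fit. With an offset of 16, Mat2a was at 0.68. With the deposited log ratio, Mat2a was at 1.02 and Mat2b at -0.17. As the mean of their probes, Mat2a was at 0.46 and RGD1560523 at 0.79. On 1 array alone, with the dye effect not cancelled, values ran from -1.51 to -1.49 for Gnmt, -0.49 to -0.26 for Mat1a, 0.53 to 0.63 for Mat2a, -0.14 to -0.10 for Mat2b, 1.15 to 1.25 for RGD1560523, -0.31 to -0.21 for Ahcy, -0.49 to -0.36 for Gamt and -0.17 to -0.01 for Nnmt. The cause of these shifts was not tested.

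Counts of calls rested on the setting. With the deposited log ratio and with median centring limma called 0 genes, related genes included, with 2122 and 19 genes at an unadjusted p under 0.05. Against 795 and 773 genes called higher and lower, 156 and 90 were past 1.5-fold on both arrays, and 0 of the related genes called higher or lower were past it. With an intensity trend, 5 sarcosine and glycine genes fell in place of 3. The rise of Parp1 was lost (0 calls) with an offset of 16, with the mean of probes and without the filter on dim probes, and in the last of these 1 nicotinamide gene fell in place of 3. With an offset of 16 it was 2 of 3, and 2 of the 3 genes around Ahcy fell with that offset and without the filter. Each ratio already pairs the diets by array. Dim probes, as for Mat2a, limit how well a ratio is known.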
